A study of Danio rerio with 23 samples.

Results

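The 200 transcripts described here varied most among the ovaries of young wild-type zebrafish (Danio rerio). They were taken from the 17441 transcripts, of 57775 listed, that had at least 10 estimated counts in all 23 libraries. CPM is a transcript's estimated count divided by the total of its library and multiplied by 1000000. Those 17441 were ranked by the standard deviation (SD) of log2(CPM + 0.5) over the 5 wild-type libraries of 3 months, and the top 200 were kept. The libraries came from ovaries of females: 6 nr3c1 -/- libraries of 6 months, 6 nr3c1 -/- libraries of 3 months, 6 wild-type libraries of 6 months and 5 wild-type libraries of 3 months. The mutants, called GRKO, lack the glucocorticoid receptor in the whole body and the wild types are called WT. The study's question was the role of receptor loss in the ageing of the ovary. Numbers given to libraries below are those of their titles. GRKO library 4 of 3 months has a mutant title but a wild-type entry in its genotype field, and is kept in GRKO by its title. Nothing in the labels ties a library to a fish of its own, so p-values measure library-to-library spread only, and some of that spread may be technical.

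The receptor encoded by nr3c1 binds cortisol and then acts as a transcription factor in the nucleus. The zebrafish ovary carries follicles of all stages side by side, from small oocytes to large yolk-filled ones, each surrounded by granulosa and theca cells, and growing oocytes store messenger RNA for the embryo. RNA of a whole ovary is therefore a sum over oocytes and several somatic cell types, in which fewer cells of a type and less RNA per cell cannot be told apart. The files list transcripts by Ensembl identifier without gene names, and 0 of the identifiers matched the gene table at hand. The tissue label was therefore not checked against marker genes, and no function is given for any transcript.

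Libraries summed to between 29489146 and 39785753 estimated counts. Among the WT libraries of 3 months, the 100 most abundant transcripts held 18.3% and 20.04% of the counts in libraries 2 and 6, and 25.6%, 25.1% and 24.9% in libraries 10, 12 and 13. Values that were not whole numbers, which arise when a read fits several transcripts, made up 74.5% and 74.7% of the nonzero values in libraries 2 and 6 and 75.8% to 76.7% in the other 3. These measures move with the division among the young wild types described next, and their part in it was not tested.

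Most of the 200 transcripts divided the young wild types in the same way. WT libraries 10, 12 and 13 all stood above libraries 2 and 6 for 101 transcripts, and all stood below them for 76. The remaining 23 kept neither order. Over all 17441 transcripts ranked, 29.2% kept the first order, 39.6% the second and 31.2% neither. For 142 of the 200 (71.0%), the widest gap between neighbouring libraries lay between libraries 2 and 6 on one side and 10, 12 and 13 on the other, against 42.6% of all transcripts ranked. The SD chose these transcripts, so the counts describe them and carry no test.

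The spread that chose them was large. The SD of log2(CPM + 0.5) over the young wild types had a median of 2.03 for the 200 and 0.39 for all transcripts ranked, and reached 4.74 at rank 1. Between the lowest and the highest young wild type, the 200 differed by 10.4-fold to 2187-fold, with a median of 22.9-fold. The limit of the list is not a natural break. ENSDART00000135658.2, the last inside at an SD of 1.7842, stood at 0.704, 0.992, 9.93, 10.0 and 16.8 CPM in WT libraries 2, 6, 10, 12 and 13 of 3 months. ENSDART00000171806.3, the first outside at 1.7827, stood at 40.0, 32.7, 3.50, 4.48 and 2.57 CPM in the same libraries.

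**Figure D1:**
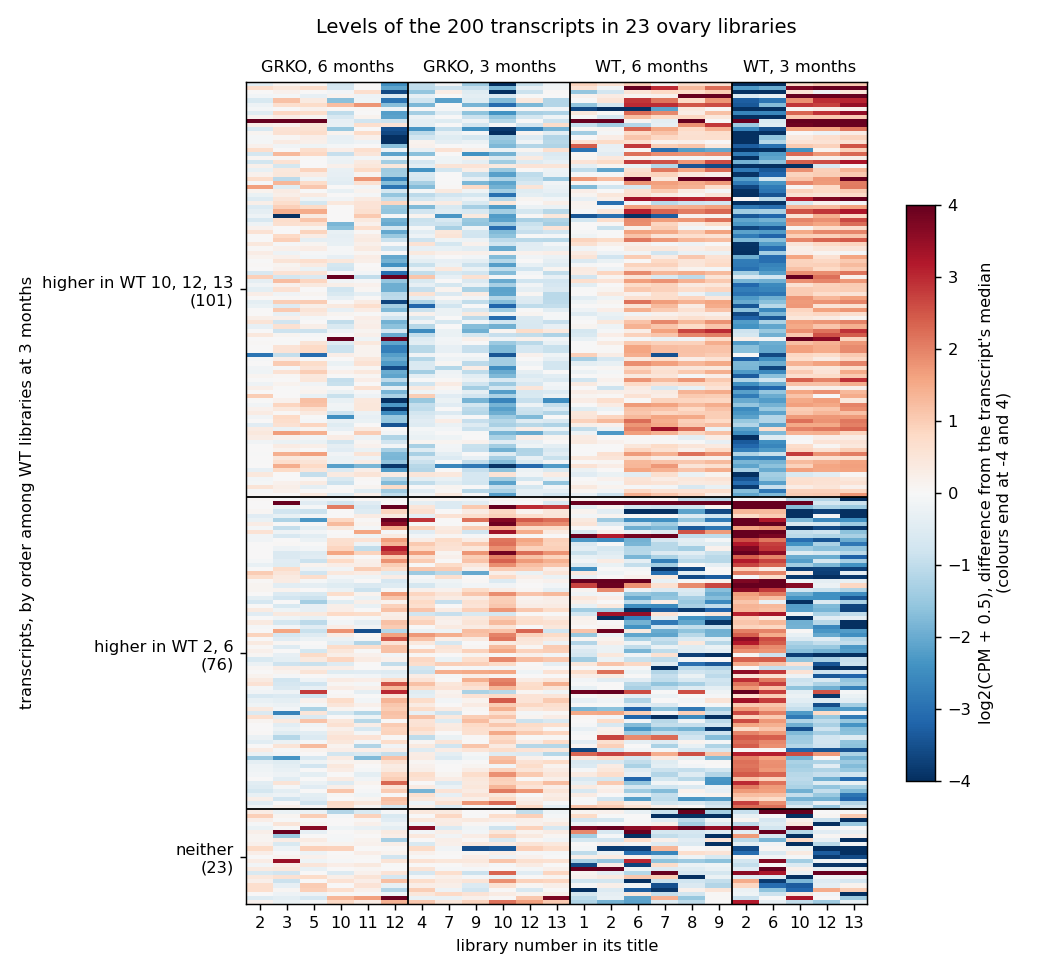
Levels of the 200 transcripts (rows, grouped by their order among WT libraries at 3 months, with the largest SD on top) in 23 libraries (columns, numbered as in their titles), as the difference in log2(CPM + 0.5) from each transcript's median over all libraries. WT libraries 2 and 6 at 3 months stand opposite libraries 10, 12 and 13 in most rows, and GRKO library 12 at 6 months and GRKO library 10 at 3 months lean toward WT libraries 2 and 6.

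The minimum of 10 estimated counts in all libraries kept rare transcripts out of the list. Their mean level over all libraries ranged from 2.43 to 1666 CPM with a median of 21.5 CPM, against a median of 15.5 CPM for all transcripts ranked, and 23 of them exceeded 100 CPM. Together they held 1.30% ± 0.1165 of the counts in GRKO at 6 months, 1.36% ± 0.0968 in GRKO at 3 months, 1.39% ± 0.167 in WT at 6 months (SD, n = 6 each) and 1.56% ± 0.14 in WT at 3 months (SD, n = 5). The makeup of that total differed between the young wild types. In WT libraries 2 and 6 of 3 months, the 101 transcripts higher in libraries 10, 12 and 13 held 0.05% and 0.0825% of the counts, and in libraries 10, 12 and 13 they held 1.04%, 1.13% and 1.36%. The 76 transcripts of the opposite order held 1.5% and 1.31% in libraries 2 and 6, and 0.212%, 0.182% and 0.0665% in libraries 10, 12 and 13.

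Whole estimated counts in every library were seen for 13 of the 200 (6.5%), against 16.5% of all transcripts ranked. For the other 187 some reads were shared with other transcripts in at least 1 library, so their levels can include reads divided between isoforms or near-identical genes.

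The other 3 groups were compared with the young wild types by a position. For each transcript, 0 is the mean log2 level of WT libraries 2 and 6 at 3 months and 1 is the mean of libraries 10, 12 and 13. The young wild types sit near 0 or 1 by construction, and no other library entered the ranking. For the 101 transcripts higher in WT libraries 10, 12 and 13, the median position in the 6 GRKO libraries of 6 months was 0.656, 0.767, 0.760, 0.547, 0.725 and 0.192 in libraries 2, 3, 5, 10, 11 and 12. In the 6 GRKO libraries of 3 months it was 0.475, 0.5905, 0.490, 0.161, 0.531 and 0.528 in libraries 4, 7, 9, 10, 12 and 13. In the 6 WT libraries of 6 months it was 0.658, 0.668, 0.970, 0.911, 0.880 and 0.924 in libraries 1, 2, 6, 7, 8 and 9. Older wild types 6, 7, 8 and 9 thus stood near young wild types 10, 12 and 13, and older wild types 1 and 2 lay between the young ones. Most mutant libraries lay in the middle, and GRKO library 12 of 6 months and GRKO library 10 of 3 months lay near young wild types 2 and 6. Of these 2 libraries, GRKO library 12 of 6 months had the highest share of counts in the 100 most abundant transcripts of its group (26.2%, with the lowest at 20.2%) and the lowest share of values that were not whole (72.7%). GRKO library 10 of 3 months had 21.6% and 73.75%, inside the range of its group for both. The part of these measures in the positions was not tested.

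The 76 transcripts of the opposite order gave a similar arrangement of libraries, with some changes of order. Their median position ranged from 0.205 to 0.653 in GRKO at 6 months, with library 12 lowest and a group median of 0.581. In GRKO at 3 months it ranged from 0.129 to 0.5105, with library 10 lowest and a group median of 0.3555. In WT at 6 months it ranged from 0.428 in library 2 to 0.856 in library 7, with a group median of 0.769. GRKO library 4 of 3 months, whose genotype field disagrees with its title, lay at 0.475 and 0.462 for the 2 sets, inside the range of the other GRKO libraries of that age.

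**Figure D2:**
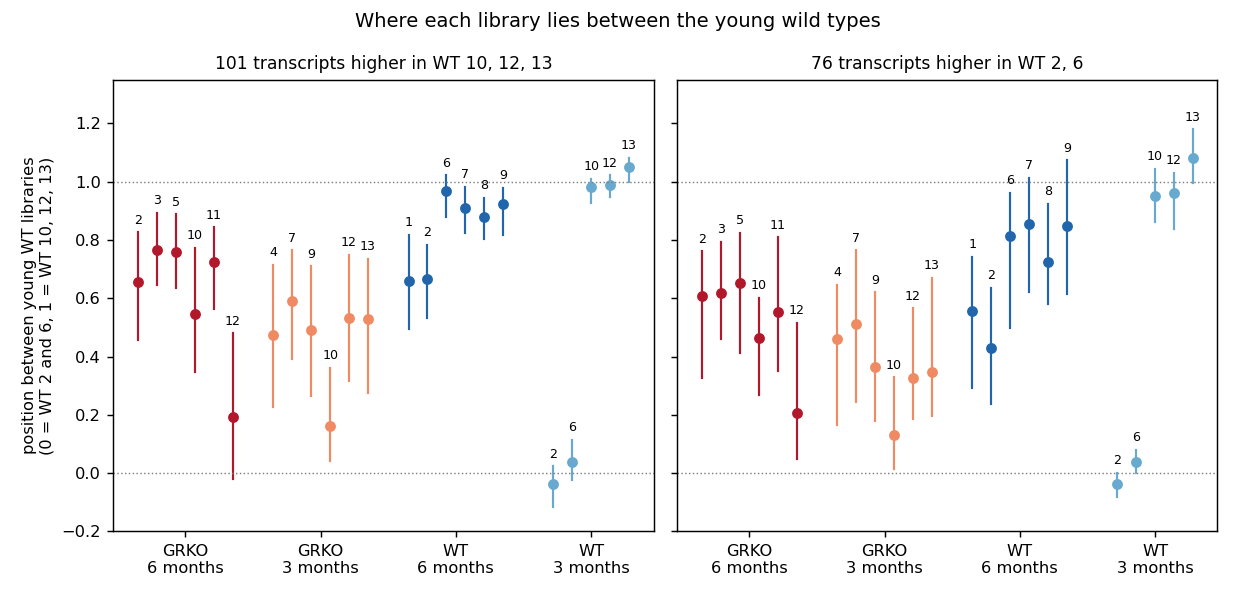
Position of each library between the young wild types, for the 101 transcripts higher in WT libraries 10, 12 and 13 of 3 months (left) and the 76 higher in WT libraries 2 and 6 (right). Points are medians over transcripts, bars run from the lower to the upper quartile, and numbers are library numbers. WT libraries 6, 7, 8 and 9 at 6 months lie nearest to 1, and GRKO library 12 at 6 months and GRKO library 10 at 3 months lie nearest to 0 among the libraries that did not choose the transcripts.

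In CPM, the median level of the 101 transcripts was 3.80 to 19.1 in GRKO at 6 months, 3.93 to 11.8 in GRKO at 3 months and 14.8 to 28.9 in WT at 6 months. Young wild types 2 and 6 had 1.47 and 2.44, and young wild types 10, 12 and 13 had 32.3, 35.0 and 47.7. For the 76 transcripts the median was 11.2 to 30.9 in GRKO at 6 months, 18.1 to 48.0 in GRKO at 3 months and 6.54 to 18.5 in WT at 6 months. It was 61.7 and 52.9 in young wild types 2 and 6, and 3.46, 3.65 and 2.49 in 10, 12 and 13. At these medians the extremes of the young wild types enclosed the other 3 groups. This follows in part from choosing and sorting the transcripts by those same libraries.

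Positions were also computed below the limit of the list. Of the next 800 transcripts by SD, 372 were higher in young wild types 10, 12 and 13 and 324 in 2 and 6. Median positions of the 372 lay between 0.0768 and 0.790 in GRKO libraries of 6 months, between 0.191 and 0.535 in GRKO libraries of 3 months and between 0.597 and 0.968 in WT libraries of 6 months, with the same mutant libraries, 12 of 6 months and 10 of 3 months, lowest in their groups. For the 324 they lay between 0.380 and 0.652, between 0.194 and 0.525 and between 0.456 and 0.847 in the same groups. GRKO library 12 of 6 months, at 0.380, was there above GRKO library 9 of 3 months at 0.363 and no longer near young wild types 2 and 6. WT library 2 of 6 months, at 0.456, was level with GRKO library 10 of 6 months.

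The SD in WT at 3 months chose the transcripts, so a smaller spread in the other groups follows from the choice and is given as a description. The median SD of the 200 was 0.68 in GRKO at 6 months, 0.52 in GRKO at 3 months and 0.73 in WT at 6 months, against 2.03 in WT at 3 months. Over all 17441 transcripts ranked, the medians in the same groups were 0.29, 0.24, 0.28 and 0.39. In the 3 groups not used for the choice, the median transcript of the 200 stood at the 91.9th, 91.9th and 92.4th percentile of the spread. An SD as large as that of rank 200 was reached by 14 of the 200 in GRKO at 6 months, by 3 in GRKO at 3 months and by 31 in WT at 6 months. Those were 38.9% of 36, 60.0% of 5 and 57.4% of 54 transcripts ranked that had such an SD in these groups. The other 3 groups all stayed under that SD for 158 of the 200, while in WT at 3 months all 200 reach it by the choice.

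**Figure D3:**
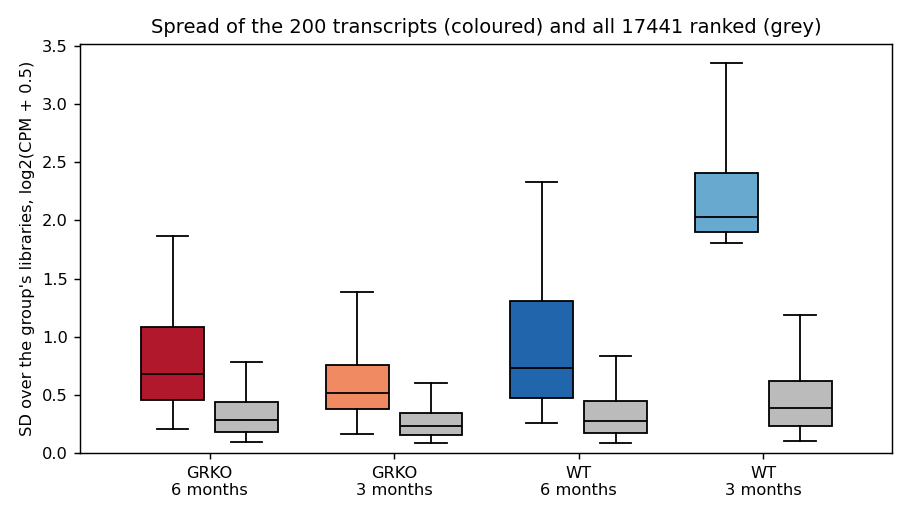
SD of log2(CPM + 0.5) over the libraries of each group for the 200 transcripts (coloured) and for all 17441 transcripts ranked (grey), with boxes for the quartiles, a line for the median and whiskers from the 5th to the 95th percentile. The medians of the 200 are 0.68, 0.52, 0.73 and 2.03 from left to right, and those of all transcripts 0.29, 0.24, 0.28 and 0.39.

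The young wild types also held the ends of the range over all 23 libraries. The highest library was a WT library of 3 months for 134 of the 200 transcripts and the lowest was one for 134, and both ends lay there for 88. WT library 2 had the highest value for 48 and the lowest for 53, and WT library 13 had the highest for 45 and the lowest for 37. All libraries of GRKO at 6 months lay inside the range of the young wild types for 143 transcripts (71.5%), all of GRKO at 3 months for 154 (77.0%) and all of WT at 6 months for 123 (61.5%). Over all transcripts ranked these shares were 30.1%, 36.6% and 30.3%. A wider young range holds more values, so these shares follow in part from the choice. Ranking by the spread of the young wild types likewise favours them at the ends of the range. The ends were not counted over all transcripts ranked.

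The 200 were sorted into 2 kinds, graded and stepped. A transcript is called stepped here where neighbouring libraries, ordered by level over all 23, are at least 4-fold apart at some point; this limit was chosen after the values were seen. By this measure 52 of the 200 (26.0%) were stepped and 148 graded, against 120 stepped (0.688%) of all transcripts ranked. A choice by spread favours transcripts with wide gaps, so this difference follows in part from the choice. The stepped transcripts were 19 of the 101, 17 of the 76 and 16 of the 23 that kept neither order. By this measure, most transcripts that kept either order were thus graded, and most that kept neither were stepped. The measure uses all 23 libraries, so a graded transcript can still have a gap of 4-fold or more among the young wild types alone. It does not tell whether the division of the young wild types was itself graded.

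Among the 3 groups that did not rank the transcripts, libraries lay on both sides of the widest gap for 11 of the 52 stepped transcripts in GRKO at 6 months, 6 in GRKO at 3 months and 26 in WT at 6 months. WT libraries of 3 months lay on both sides for 49, which follows from the choice by their spread. In 38 of the 52 all 12 GRKO libraries lay on 1 side, above the gap for 30 and below it for 8. For 15 transcripts a single library stood apart from the other 22, and in 13 of these it was a WT library of 3 months, which the choice also favours. Those 13 have all GRKO libraries on 1 side by definition and are among the 38. The count of 38 thus follows in part from the choice, and it was not made over all 120 stepped transcripts ranked.

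ENSDART00000027851.7, at rank 1, had 3 levels. It lay between 1668 and 1991 CPM in the 6 GRKO libraries of 6 months and between 1761 and 2220.2 CPM in the 6 GRKO libraries of 3 months. In WT at 6 months it stood at 2062, 1918, 1771 and 1961 CPM in libraries 1, 2, 6 and 7, and at 946 and 914 CPM in libraries 8 and 9. In WT at 3 months it stood at 1906 and 1910.3 CPM in libraries 2 and 6, at 865 and 849 CPM in libraries 10 and 12, and at 0.374 CPM in library 13. It was therefore high in all mutants, lower in 4 wild types and nearly missing from 1. At 6 months its log2 fold change of GRKO over WT was 0.29 (SE 0.22, edgeR adjusted p = 0.43).

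ENSDART00000112155.3, at rank 8, was its mirror image over the same libraries. It lay between 4.76 and 7.97 CPM in GRKO at 6 months and between 4.71 and 7.28 CPM in GRKO at 3 months. In WT at 6 months it stood at 489 and 469 CPM in libraries 8 and 9 and between 7.92 and 9.25 CPM in the other 4. In WT at 3 months it stood at 382, 368 and 1017 CPM in libraries 10, 12 and 13, and at 4.82 and 5.75 CPM in libraries 2 and 6. The 5 libraries where it was high were the 5 where ENSDART00000027851.7 was lowered, and library 13 was the extreme of both. The 2 transcripts summed to 1017 to 1434 CPM in those 5 libraries and to 1674 to 2227 CPM in the other 18. Of the 52 stepped transcripts, 3, among them ENSDART00000112155.3, had their widest gap between exactly these 5 libraries and the rest. The 2 transcripts of the pair had estimated counts that were not whole in at least 1 library. Whether they share reads was not tested, and this pair was picked out after its values were seen.

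ENSDART00000150650.2, at rank 2, was high in most wild types and low in nearly all mutants. In GRKO at 6 months it stood at 153 CPM in library 3 and between 1.55 and 3.00 CPM in the other 5, and in GRKO at 3 months between 1.79 and 2.95 CPM. All 6 WT libraries of 6 months lay between 378 and 693 CPM. In WT at 3 months it stood at 562, 897 and 352 CPM in libraries 2, 6 and 10, and at 1.69 and 1.40 CPM in libraries 12 and 13. The groups did not overlap at 6 months. GRKO over WT gave -4.14 on the log2 scale (SE 1.22), but the adjusted p of 0.0709 missed the threshold (edgeR quasi-likelihood test). Without GRKO library 3, which alone stood far from its group, the log2 fold change was -7.59 with an adjusted p of 5.83e-07 (edgeR). The threshold was also passed with DESeq2 (adjusted p = 0.00251) and with limma voom (log2 fold change -6.53, adjusted p = 0.000729), and in none of the other 20 settings.

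Transcripts that kept neither order showed the same kind of steps in other sets of libraries. ENSDART00000077418.6, at rank 3, lay between 3.64 and 11.1 CPM in GRKO at 6 months and between 4.26 and 12.1 CPM in GRKO at 3 months. It reached 903 CPM in WT library 8 of 6 months, with the other 5 between 3.13 and 10.1 CPM. In WT at 3 months it reached 1065 and 916 CPM in libraries 6 and 10, with 4.43, 8.89 and 9.20 CPM in libraries 2, 12 and 13. ENSDART00000191351.1, at rank 10, was the opposite case, since it was present everywhere but in 4 wild types. It lay between 140 and 425 CPM in GRKO at 6 months and between 202 and 418 CPM in GRKO at 3 months. It stood at 367, 214 and 217 CPM in WT libraries 1, 2 and 6 of 6 months, and at 0.668, 0.489 and 0.97 CPM in WT libraries 7, 8 and 9. In WT at 3 months it stood at 0.662 CPM in library 10 and between 173 and 438 CPM in the other 4.

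**Figure D4:**
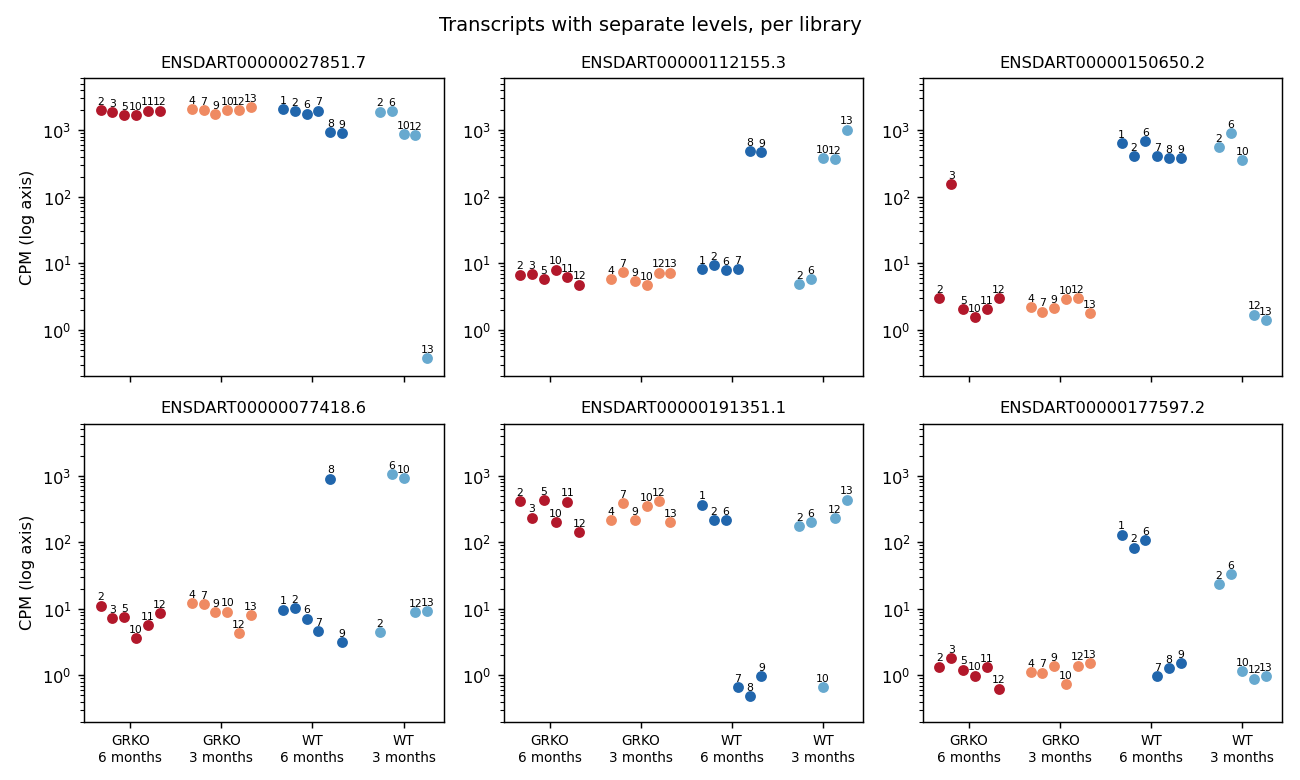
Levels of 6 stepped transcripts in each library, in CPM on a log axis, with library numbers beside the points. The 12 GRKO libraries form 1 level in every panel except that of ENSDART00000150650.2, where GRKO library 3 at 6 months stands at 153 CPM. In that panel the WT libraries at 6 months form 1 level and only those at 3 months split. In the other panels WT libraries of both ages split between levels.

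Both transcripts of largest SD among the 101 were graded. ENSDART00000137794.2, at rank 4, was among the most abundant. It lay at 1221, 1753, 1706, 993, 1635 and 299 CPM in GRKO libraries 2, 3, 5, 10, 11 and 12 of 6 months. It lay at 833, 1489, 595, 90.9, 886 and 1434 CPM in GRKO libraries 4, 7, 9, 10, 12 and 13 of 3 months. WT libraries of 6 months ranged from 1816 to 3172 CPM with no overlap with GRKO of that age. WT at 3 months stood at 15.7 and 45.3 CPM in libraries 2 and 6, and at 2701, 3248 and 3390.3 CPM in libraries 10, 12 and 13. GRKO library 12 of 6 months and GRKO library 10 of 3 months were the lowest of their groups. The log2 fold change of GRKO over WT at 6 months was -1.01 (SE 0.30, adjusted p = 0.0721, edgeR), which missed the threshold. It passed in 3 of 23 other settings, with DESeq2 (adjusted p = 0.00897), without GRKO library 12 (log2 fold change -0.82, adjusted p = 0.0222, edgeR) and without GRKO libraries 10 and 12 (-0.71, adjusted p = 0.0446, edgeR).

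ENSDART00000129870.3, at rank 5, followed the same order at a lower level. Its level was 0.381 to 5.68 CPM in the GRKO libraries of 6 months and 0.565 to 2.95 CPM in those of 3 months. In WT at 6 months it stood at 5.24, 2.98, 79.5, 30.0, 8.69 and 17.5 CPM in libraries 1, 2, 6, 7, 8 and 9. In WT at 3 months it stood at 0.292 and 0.46 CPM in libraries 2 and 6, and at 51.5, 111 and 147 CPM in libraries 10, 12 and 13. Older wild types 1 and 2 thus stood within the range of the mutants of their age. Its log2 fold change of GRKO over WT at 6 months was -2.69 (SE 0.79, adjusted p = 0.0706, edgeR). It passed the threshold in 3 of 23 other settings, with DESeq2 (adjusted p = 0.00254), without WT library 2 (-2.92, adjusted p = 0.0463, edgeR) and without WT libraries 1 and 2 (-3.16, adjusted p = 0.0258, edgeR). The omission of both WT libraries was chosen after the values were seen.

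Genotype was tested at 6 months, in the 12 libraries of that age alone, so that none of the 5 ranking libraries entered the means or the estimate of spread. The test was edgeR's quasi-likelihood test on rounded estimated counts, with Benjamini-Hochberg adjusted p-values under 0.05 over all 26557 transcripts tested, which included all 200. Of the 200, 13 were called (6.5%), against 5.20% of all transcripts tested. Higher in GRKO were 3 (2.24% of all tested were called higher) and lower were 10 (2.96%). This split was the same with RLE factors, upper-quartile factors or library totals only, at 3 higher and 10 lower. With limma voom there were 5 and 9, and with a filter of 1 CPM in 5 libraries 4 and 12. The split was nearer to even in some other settings. DESeq2 called 24 of the 200 higher and 28 lower, against 1625 and 1729 over all transcripts. Without GRKO library 3 there were 9 and 10, against 716 and 862 over all transcripts. Without GRKO library 5 there were 5 and 5, against 501 and 690. Without WT libraries 1 and 2, left out after the values were seen, there were 16 and 21, against 1038 and 936. The groups did not overlap for 9 of the 200, or 4.5%, with 3 higher and 6 lower, against 4.83% of all tested, 2.15% higher and 2.68% lower. In the edgeR test of all 12 libraries the share called was close to that of transcripts in general. It was above the general share with DESeq2 (26.9% of 193 against 12.9%) and without WT libraries 1 and 2 (18.5% against 7.06%). Numbers tested without GRKO library 3 or 5 are not given, so those counts carry no share.

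The direction of change followed the order among the young wild types. Of the 101 transcripts higher in young wild types 10, 12 and 13, 87 had a negative log2 fold change of GRKO over WT at 6 months, with a median of -0.73. Of the 76 with the opposite order, 59 had a positive one, with a median of 0.84. Over all 17441 transcripts ranked, 8853 were negative and 8588 positive, with a median of -0.01. This background pools both orders, whose signs can cancel, and signs were not counted for each order in it. It is therefore not the share to set beside either set. The transcripts within a set vary together from library to library, so they are not independent, and no test of a set was made. Without GRKO libraries 10 and 12 of 6 months the medians were -0.45 and 0.40, with 81 of 101 negative and 53 of 76 positive. Without WT libraries 1 and 2 of 6 months, left out after the values were seen, they were -0.95 and 1.02.

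Called transcripts were of both kinds, 5 stepped and 8 graded. ENSDART00000147325.2, the called transcript with the largest rise, stood at 75.6, 51.7, 46.6, 71.3, 58.7 and 133 CPM in GRKO libraries 2, 3, 5, 10, 11 and 12 of 6 months. WT of that age stood at 22.1, 21.8, 3.15, 5.43, 3.69 and 5.92 CPM in libraries 1, 2, 6, 7, 8 and 9. The groups did not overlap, and WT libraries 1 and 2 were again the nearest to the mutants. Its log2 fold change was 2.92 (SE 0.57, adjusted p = 0.0139, edgeR). At 3 months, the 6 GRKO libraries ranged from 74.3 to 199 CPM, and WT stood at 150 and 135 CPM in libraries 2 and 6 and at 12.5, 15.8 and 4.06 CPM in libraries 10, 12 and 13.

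ENSDART00000149207.2 rose as well, to between 32.6 and 156 CPM in GRKO at 6 months, against 8.35 to 28.8 CPM in WT of that age (log2 fold change 2.25, SE 0.43, adjusted p = 0.0115, edgeR). The groups did not overlap. At 3 months it ranged from 83.7 to 211 CPM in GRKO, and in WT it stood at 258 and 206 CPM in libraries 2 and 6 and at 40.4, 16.1 and 15.9 CPM in libraries 10, 12 and 13.

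The 2 called transcripts that fell furthest were stepped, and their calls rested on some of the wild types. ENSDART00000177597.2 lay between 0.631 and 1.79 CPM in GRKO at 6 months. In WT of that age it stood at 130.4, 82.6 and 109 CPM in libraries 1, 2 and 6, and at 0.965, 1.29 and 1.54 CPM in libraries 7, 8 and 9, within the range of the mutants. GRKO over WT gave -5.43 on the log2 scale (SE 1.25, adjusted p = 0.0285, edgeR). At 3 months the GRKO libraries ranged from 0.73 to 1.52 CPM, and WT libraries 2 and 6 stood at 23.6 and 33.4 CPM with the other 3 between 0.887 and 1.14 CPM. ENSDART00000112155.3, described above, owed its fall to WT libraries 8 and 9, and GRKO over WT gave -4.65 on the log2 scale (SE 1.23, adjusted p = 0.0484, edgeR). Of 23 other settings, 11 ended the call of ENSDART00000177597.2 and 12 that of ENSDART00000112155.3. Over all 23, the adjusted p lay between 8.85e-06 and 0.368 for the first and between 0.000313 and 0.588 for the second (edgeR, DESeq2 or limma). For the transcripts that rose, 2 settings ended the call of ENSDART00000147325.2 and 1 that of ENSDART00000149207.2. Over all 23, the adjusted p lay between 8.62e-07 and 0.288 for the first and between 1.51e-06 and 0.394 for the second (edgeR, DESeq2 or limma). Over the 23 settings the log2 fold changes lay between 2.51 and 4.13 for ENSDART00000147325.2 and between 1.88 and 3.03 for ENSDART00000149207.2. They lay between -5.69 and -2.51 for ENSDART00000177597.2 and between -5.19 and -2.23 for ENSDART00000112155.3. Without any 1 library, the log2 fold change of these 2 stayed between -5.69 and -4.90 and between -4.90 and -3.95.

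The number of calls among the 200 depended on the libraries and on the tool. Without GRKO libraries 10 and 12 it was 4 (2%), against 1.97% of all tested. Without WT libraries 1 and 2, left out after the values were seen, it was 37 (18.5%), against 7.06% of all tested. Among those called, 19 of 101 were lower and 16 of 76 were higher in GRKO. Of the older wild types these 2 libraries lay nearest to the mutants in position, so leaving them out favours more calls among the 200. DESeq2 called 52 of the 193 to which it gave an adjusted p (26.9%), against 12.9% of all transcripts. Leaving out a single library gave 5 to 19 calls: 5 without GRKO library 2 or 10, 7 without GRKO library 11 and at least 9 without any other library of that age.

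**Figure D5:**
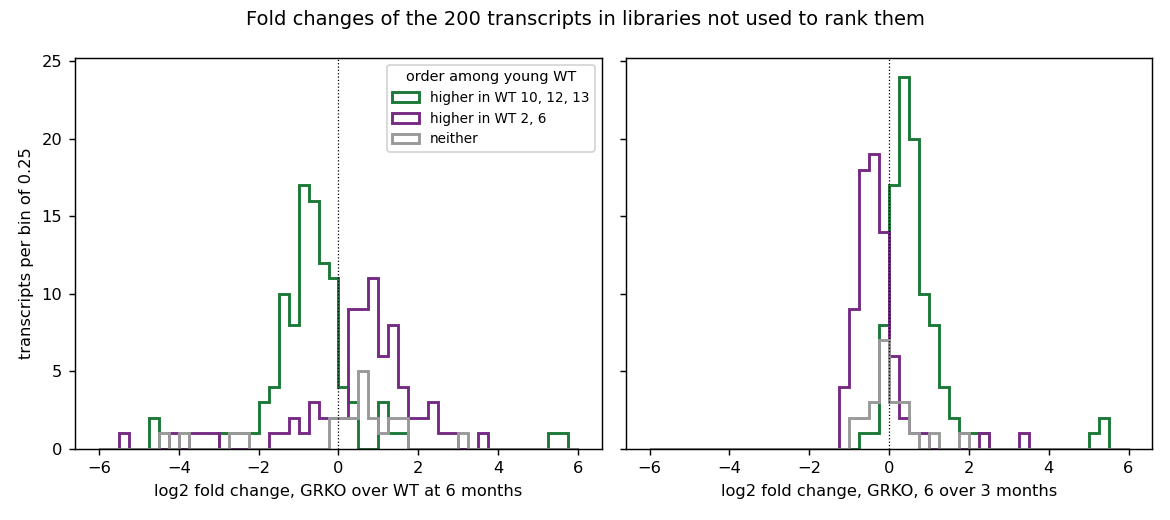
Numbers of transcripts by log2 fold change, in bins of 0.25, for GRKO over WT at 6 months (left) and for GRKO at 6 over 3 months (right), drawn separately for the 101 transcripts higher in WT libraries 10, 12 and 13 at 3 months, the 76 higher in 2 and 6 and the 23 with neither order. The medians of the first 2 sets are -0.73 and 0.84 on the left, and 0.49 and -0.44 on the right.

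Age was tested in the mutants, in the 12 GRKO libraries alone. None of the 200 transcripts was called between 6 and 3 months (edgeR quasi-likelihood test), and 1 of 25607 transcripts tested was called in all, which is 0.00391%. At an unadjusted p under 0.05 there were 38 of the 200, against 3814 of all 25607 tested and 3042 of the 17441 ranked (edgeR). The groups did not overlap for 1 of the 200, or 0.5%, against 1.22% of all tested. DESeq2 called 14 of the 193 with an adjusted p (7.25%), 10 higher and 4 lower at 6 months, against 4.88% of all transcripts.

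The signs again followed the order among the young wild types. Of the 101 transcripts higher in young wild types 10, 12 and 13, 91 had a positive log2 fold change of 6 over 3 months in GRKO, with a median of 0.49. Of the 76 with the opposite order, 64 had a negative one, with a median of -0.44. All transcripts ranked had a median of 0.00, with 8813 positive and 8628 negative. This background too pools both orders, and signs were not counted for each order in it. The standard error of a single transcript had a median of 0.36 over the 200. Without GRKO libraries 10 and 12 of 6 months the medians were 0.72 for the 101, with 90 positive, and -0.84 for the 76, with 66 negative. Medians without GRKO library 10 of 3 months, the lowest of its group in position, are not given. The comparison shares the GRKO libraries of 6 months with the genotype comparison, so the 2 sets of fold changes are not independent.

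The remaining contrasts use the libraries that chose the transcripts and are given as levels only. For the 101 transcripts the median position was 0.691 in GRKO at 6 months, 0.509 in GRKO at 3 months and 0.896 in WT at 6 months, as medians over libraries. At this median the 6 mutant libraries of 3 months lay between the 2 parts of the wild-type group of that age and overlapped neither. All libraries of GRKO and WT at 6 months lay there too, from 0.192 to 0.970. This follows in part from choosing and sorting the transcripts by the young wild types, so it is not particular to the young mutants. None of the 200 transcripts had all GRKO libraries of 3 months, all GRKO libraries of 6 months or all WT libraries of 6 months outside the range of the young wild types on 1 side. Over all 17441 transcripts ranked, GRKO of 3 months lay wholly above that range for 516 and wholly below it for 586, which describes how wide the young wild-type range is for the 200.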

How the data were processed

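Polyadenylated RNA from ovaries was sequenced in 23 libraries. The deposited values are estimated counts per transcript; the submitters' processing notes name kallisto 0.48.0 and the build GRCz11, and the files' header names the columns. The annotation release, any read filter and the strand option used are not stated in the labels or files used here. Members and lists were chosen with earlier results of these data known. Estimated counts were rounded for testing only. The 2 tests used edgeR 4.0.16 in R 4.3.3 (TMM factors, robust quasi-likelihood fit, edgeR's own low-count filter at its minimum of 10 counts, 15 in total), each on the 12 libraries compared, with DESeq2 1.42.0 and limma 3.58.1 (voom) as alternatives. Standard errors were derived as the size of the log2 change over the root of edgeR's F statistic. All 200 transcripts met the minimum count in all libraries and were tested by edgeR in both comparisons. DESeq2 gave an adjusted p to 193 of them in each. Values within 1e-06 of a whole number were called whole. Transcripts named are those at ranks 1, 2, 200 and 201, the 2 of largest SD in each order among the young wild types and among those with neither order, and the 2 called with the largest fold per comparison and direction. ENSDART00000112155.3 also pairs with rank 1 by its levels, seen afterwards. Gene lists and cell type markers could not be applied without gene names. On simulated counts for 26557 and 25607 transcripts, the tests recovered 34 and 46 of 100 changes of 2-fold, and 72 and 80 of 100 of 4-fold, for genotype at 6 months and age in GRKO, with 2 and 3 false calls. The changes were placed only in transcripts with a mean of at least 1 CPM. Plots used Python 3.11.15 and matplotlib 3.10.9.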

Additional observations from a re-analysis of the deposited data

Results flagged for a closer look

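In groups of 6 libraries, 42 checks for a library far from the rest gave 6 results. Chance gives about 1 in 20 for a check on an item not picked by its values. The items here were transcripts named by spread, order or fold and summaries of the 200, and they share libraries. The 6 results can therefore not be set against that rate. The young wild types were not checked, as their spread chose the transcripts. GRKO library 3 of 6 months had 152.8 CPM of ENSDART00000150650.2, with the other 5 at 1.55 to 3.00. ENSDART00000137794.2 was low in GRKO library 12 of 6 months (299 CPM, others 993 to 1753) and in GRKO library 10 of 3 months (90.9 CPM, others 595 to 1489). ENSDART00000077418.6 reached 903.5 CPM in WT library 8 of 6 months, with the others at 3.13 to 10.1. GRKO library 10 of 3 months had the lowest median position, 0.161 against 0.475 to 0.5905, for the transcripts higher in young wild types 10, 12 and 13. The 200 transcripts held 1.709% of the counts in WT library 6 of 6 months, against 1.21% to 1.39% in the other 5.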

How the results depend on the processing

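Membership depended on the count minimum: 116 of the 200 were kept with a minimum of 1 count in every library and 46 with a minimum of 100. With 1 young wild type left out of the ranking, 156 to 181 were kept. The share whose widest gap set young wild types 2 and 6 apart was 68% to 81% over the same omissions, against 71%. For genotype at 6 months, 13 of the 200 were called. The count was 52 with DESeq2, 7 with no filter and 4 without GRKO libraries 10 and 12. Without WT libraries 1 and 2, left out after the values were seen, the count was 37. It was 0 among transcripts with whole counts, of which there are only 13. Leaving out 1 library gave 5 to 19. Over all transcripts, 1380 were called, and 3354 with DESeq2, 562 without GRKO libraries 10 and 12, and 850 to 1578 with 1 library left out. For age in GRKO, 0 of the 200 were called, with 14 by DESeq2, 1 without GRKO libraries 10 and 12 of 6 months, and 0 with any 1 library left out. Over all transcripts 1 was called, with 1053 by DESeq2, 3 by limma voom, 0 with library totals only, 2 with no filter, 2 with a filter of 1 CPM, 5 in the fit of all 23 libraries, 26 without GRKO libraries 10 and 12, 2 without GRKO libraries 10 of 3 and 12 of 6 months, and 0 to 14 with 1 library left out. Apart from the whole-count set, which is smaller by construction, the cause was not tested. With the library number as a replicate block in a fit of all 23 libraries, the calls were 0 of the 200 and 17 overall for genotype, and 0 and 6 for age. The groups compared share only number 2 for genotype and numbers 10 and 12 for age. Deviations of these same-numbered libraries had correlations of 0.0561, 0.0721 and -0.163. Pairs with different numbers were not computed for comparison, so whether a number marks anything shared was not tested. In the simulated counts, changes of 2-fold were mostly missed at this number of libraries. Those counts were drawn independently, with changes placed at random among transcripts with a mean of at least 1 CPM. The 200 had a larger median standard error, 0.49 against 0.30 over all tested for genotype and 0.36 against 0.25 for age. The simulation therefore does not give the recovery for the 200.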

Other observations

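An SD at or above that of rank 200 in 2 of the 3 other groups was seen for 6 of the 200 transcripts, in 1 other group for 36 and in all 3 for 0. Of the 31 transcripts with such an SD in WT at 6 months, 12 kept neither order among the young wild types, 12 were higher in young wild types 2 and 6 and 7 in 10, 12 and 13. Of the 52 stepped transcripts, 8 had whole estimated counts in every library.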
